A study of Mus musculus with 6 samples.

Results

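The perineurium is the cell sheath that wraps a nerve fascicle, and it joins traits of connective tissue and of epithelium. Its cells lie on a basement membrane, are linked by tight junctions and form a diffusion barrier around the axons and their Schwann cells. Epithelial cells build such sheets from a shared set of parts. Keratins are intermediate filament proteins that pair 1 type I chain (Krt18, Krt19) with 1 type II chain (Krt8). Desmosomes (Dsp, Jup, Perp) and the adherens junction (Cdh1, Jup) fasten cells to each other, and the integrin α6β4 of the hemidesmosome (Itga6, Itgb4) fastens them to the basement membrane. Klf5 is a zinc-finger transcription factor of proliferating epithelia.

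These 10 genes, Krt19, Krt8, Krt18, Perp, Itgb4, Itga6, Klf5, Dsp, Jup and Cdh1, were followed by gene symbol among the 32285 genes of the count matrices. They were chosen by their measured levels in the perineurial cells of these libraries, so their levels by cell type are a description and carry no test. By detection the label fitted 6 of them, although the mean of Jup was no higher than in lymphatic endothelial cells. Krt19, Perp, Itgb4, Itga6, Klf5 and Jup were measured in the perineurial cells of every library, whereas Krt8 and Dsp had 0 UMIs there, Krt18 had 1 and Cdh1 had 23.

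The cells were tdTomato+ cells sorted from mouse back skin after tamoxifen induction of Cdh5-CreERT2, which marks cells that express VE-cadherin (Cdh5), and were profiled by 10x Genomics 3′ scRNA-seq. WT telogen mice (PD 20, n = 2) and WT anagen mice (PD 32, n = 2) were of the C57BL/6;CD1 strain and carried Cdh5-CreERT2, tdTomato and Krt14-H2BGFP, and their GFP+ cells, the Krt14-expressing keratinocytes, were left out by the sort. Alk1 KO telogen mice (PD 25, n = 2) were C57BL/6 and Alk1 flox/flox;tdTomato;Cdh5-CreERT2, so genotype, day, strain and the GFP allele cannot be told apart. The study describes the KO data as an earlier dataset of its own. The dataset of origin and, with the day, the time since tamoxifen thus also differ with genotype. The genotype field of the KO samples reads wild type, against their title and description. Each library, S1 or S2, is 1 mouse by the study's methods, and sex was not considered. Acvrl1, which encodes Alk1, was measured in the blood endothelial cells of the KO libraries at 172 and 164 CPM (counts per 1000000 UMIs, summed over the cells of a type in 1 library), against 219 and 191 CPM in WT telogen and 165 and 186 CPM in WT anagen. In perineurial cells Acvrl1 was at 13.0 and 0 CPM in the KO and at 9.87 to 21.9 CPM in the WT libraries. Which part of the gene is flanked by loxP sites is not given in the sources used here, so these 3′ counts do not check the deletion.

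After filtering, 20941 of 27418 barcodes were kept, 1713 to 5106 per library with a median of 4371 to 6935 UMIs, and pairs of libraries shared 1 to 8 barcodes. Cells were clustered without the 10 genes and named from other markers. The perineurial-like cells numbered 511 and 794 in WT telogen S1 and S2, 264 and 697 in WT anagen and 75 and 47 in the KO, 2388 in all. All 10 perineurial markers, among them Slc2a1, Cldn1 and Sfrp5, were detected in 5 libraries and 9 of 10 in KO S2, with summed levels of 5685 and 6084 CPM in the KO and 6509 to 8076 CPM in the WT libraries. Lypd2, one of these markers, was at 3.26 and 0 CPM in the KO against 490 to 690 CPM in the WT libraries. Krt19 took no part in the clustering and was among the 10 genes that led this cluster, but it was chosen for its level in these cells.

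All 10 genes are protein coding, and their positions are those of GENCODE vM21 on GRCm38, the build named mm10 in the submitters' processing notes. Krt19 lies at chr11:100140810-100148665 on the minus strand, in the type I keratin cluster, and Jup lies close by at chr11:100368958-100397763. Krt8 (chr15:101996698-102004482) and Krt18 (chr15:102028180-102032027), which encode the classical pair of simple epithelia, are neighbours in the type II keratin cluster. The promoter windows of this pair, 250 bases before to 50 after the RefSeq start (GRCm38.p6), are shown because both genes were at or near 0 in perineurial cells while Klf5 was abundant. Capitals mark CCNCNCCC, the GC-rich box of KLF and SP factors, searched on both strands with overlapping matches counted.
Krt8 (chr15:102004293-102004592, minus strand): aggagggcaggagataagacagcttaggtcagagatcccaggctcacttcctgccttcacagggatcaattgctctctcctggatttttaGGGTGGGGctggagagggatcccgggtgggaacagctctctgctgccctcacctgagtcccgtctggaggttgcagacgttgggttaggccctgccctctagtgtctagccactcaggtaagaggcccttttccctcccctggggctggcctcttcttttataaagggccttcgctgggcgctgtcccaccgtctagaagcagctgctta
Krt18 (chr15:102027966-102028265, plus strand): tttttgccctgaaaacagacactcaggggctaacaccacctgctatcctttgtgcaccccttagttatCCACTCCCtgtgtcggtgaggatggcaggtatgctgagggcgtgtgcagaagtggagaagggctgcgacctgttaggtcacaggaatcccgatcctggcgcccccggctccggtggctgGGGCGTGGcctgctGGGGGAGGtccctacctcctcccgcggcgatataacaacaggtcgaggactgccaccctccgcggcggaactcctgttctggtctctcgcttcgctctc
The Krt8 window holds 1 match and the Krt18 window 3, and 49.5% of 32851 windows of this length hold at least 1. Windows were matched for 4 of the 10 genes (Krt8, Krt18, Dsp and Jup), and no entry was matched for Krt19, Perp, Itgb4, Itga6, Klf5 and Cdh1. A match is a description of the letters and not of binding.

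Among the keratins, perineurial cells had Krt19 and hardly any type II partner. Krt19, a type I keratin also used as a marker of hair follicle stem cells, was at 643 and 572 CPM in WT telogen S1 and S2, at 735 and 881 CPM in WT anagen and at 111 and 204 CPM in the KO. The WT libraries were all above the KO libraries, and the mean over libraries was 524 ± 304 CPM (SD, n = 6). Krt8, the type II partner, had 0 UMIs among 13647728 in perineurial cells, which allows a level of up to 0.22 CPM by counting error alone. Its absence was not particular to them. The highest mean of Krt8 among 15 cell types was 1.49 CPM, in fibroblast-like cells, so no type served as a reference for its detection. Krt7, another type II keratin of simple epithelia, had 10 UMIs. Krt18 had a single UMI, in WT telogen S2. Of the 53 keratin genes in the matrices, 18 had a UMI in perineurial cells, and Krt19 gave 90.0% of their 10119 UMIs.

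The remaining keratin UMIs came mainly from type I genes. Krt35, a hair keratin named here after its values were seen, gave 5.18% of the keratin UMIs. It was at 46.2 and 31.5 CPM in WT telogen, 25.7 and 52.0 CPM in WT anagen and 0 CPM in both KO libraries, while blood endothelial cells had 2 Krt35 UMIs in 1 library and 0 in the others. Krt10, a keratin of differentiated epidermis, was at 27.6 to 38.9 CPM in all 6 libraries, and in blood endothelial cells it was at 4.55 to 12.1 CPM. Krt14 and Krt5, the pair of basal keratinocytes, had 1 UMI each. The 12 keratinocyte markers summed to 130 to 372 CPM in WT and to 40.7 and 58.7 CPM in KO perineurial cells. Lgals7, the first gene of 3 perineurial subclusters (452, 36 and 23 cells), was the most variable of them, and without it the sums were 32.3 to 43.1 CPM in WT and 40.7 and 45.7 CPM in KO.

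**Figure D1:**
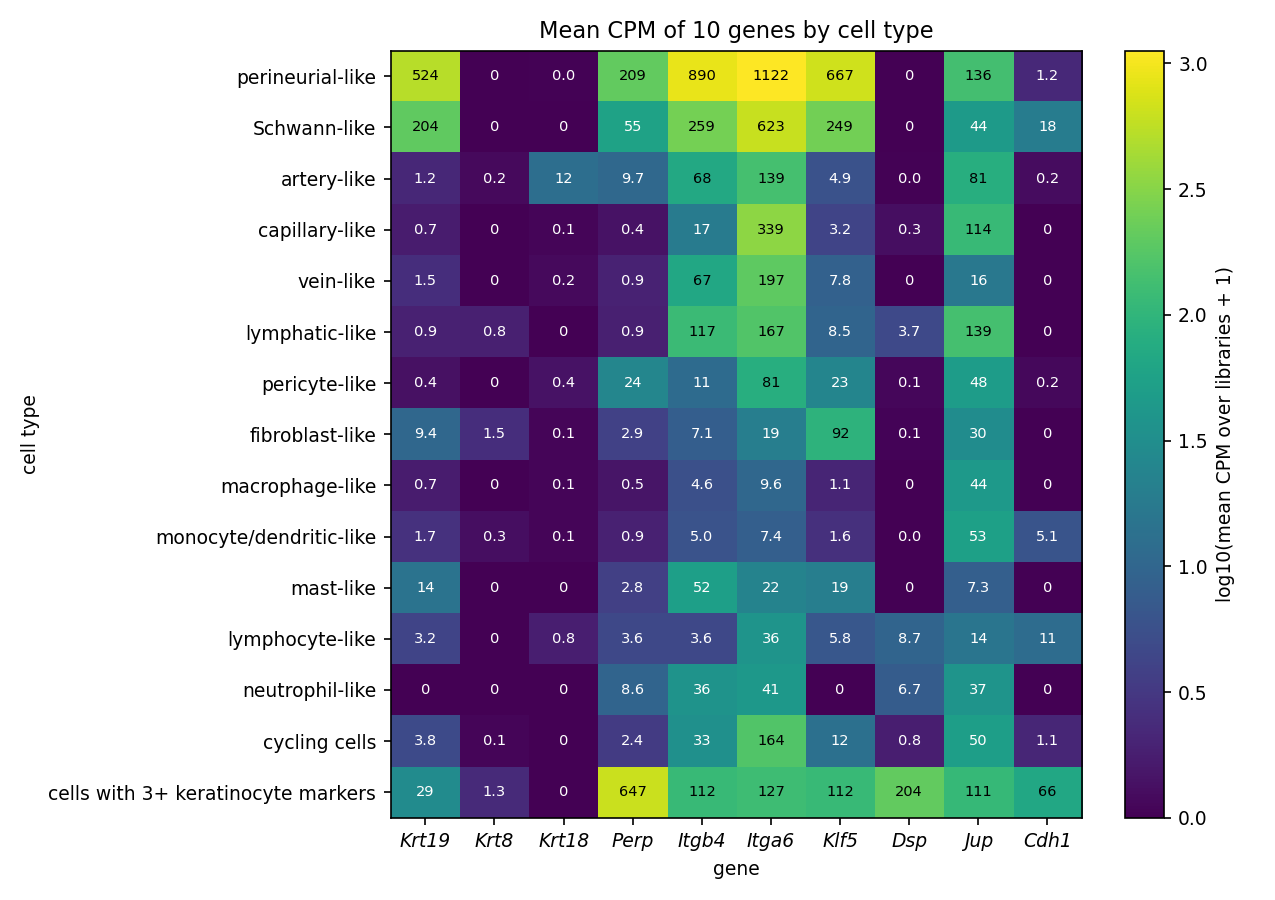
Mean CPM over libraries (numbers, with the colour giving log10 of the mean plus 1) of the 10 genes (columns) in 15 cell types (rows), from libraries with at least 10 cells of the type. Krt19, Itgb4, Itga6 and Klf5 are highest in perineurial-like cells, whereas Krt8 and Dsp are at 0 there.

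Of the hemidesmosome pair, both genes were abundant in perineurial cells and varied little between mice. Itga6, the α subunit that also binds laminin with β1, was at 1188 and 1284 CPM in WT telogen, 944 and 1061 CPM in WT anagen and 1233 and 1024 CPM in the KO. Itgb4, the β4 subunit that anchors keratin filaments in epithelia, was at 823 and 844 CPM in WT telogen, 841 and 914 CPM in WT anagen and 936 and 983 CPM in the KO. The mean was 1122 ± 133 CPM for Itga6 and 890 ± 63.9 CPM for Itgb4 (SD, n = 6). Schwann-like cells came second for both, at 623 ± 200 and 259 ± 58.0 CPM (SD, n = 3), and their range did not reach that of perineurial cells. Among endothelial cells the 2 subunits were not ranked alike. Itga6 was higher in capillary-like (339 ± 82.5 CPM) than in artery-like cells (139 ± 19.9 CPM), with no overlap between libraries, whereas Itgb4 was lower in capillary-like (17.5 ± 7.67 CPM) than in artery-like cells (67.8 ± 12.0 CPM), again with no overlap (n = 6).

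From the wider hemidesmosome list, Plec and Cd151, which encode a filament linker and a tetraspanin partner of the integrin, were at 325 ± 46.8 and 290 ± 141 CPM in perineurial cells (SD, n = 6). Itgb1, the β1 integrin subunit, was at 421 ± 45.9 CPM.

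Klf5 was at 560 and 581 CPM in WT telogen, 490 and 592 CPM in WT anagen and 796 and 983 CPM in the KO perineurial cells. Both KO libraries were above all WT libraries. Its mean of 667 ± 186 CPM (SD, n = 6) was followed by Schwann-like cells at 249 ± 83.2 CPM (n = 3) and fibroblast-like cells at 92.5 ± 34.4 CPM (n = 6), and blood endothelial cells had 2.45 to 8.81 CPM. The other epithelial regulators were mostly low. Klf4, a related factor of barrier epithelia, was at 167 ± 32.8 CPM in perineurial cells, and 3 of the 22 genes of the epithelial list had enough UMIs to be tested in the KO comparison.

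The desmosome set was split. Perp, a membrane protein of desmosomes and a p53 target, was at 191 and 200 CPM in WT telogen, 199 and 205 CPM in WT anagen and 268 and 192 CPM in the KO. Its mean of 209 ± 29.1 CPM (SD, n = 6) compared with 0.68 to 1.69 CPM in the blood endothelial cells of the WT libraries and 9.33 and 9.66 CPM in those of the KO. Jup, the plakoglobin that desmosomes share with adherens junctions, was at 133 and 165 CPM in WT telogen, 141 and 125 CPM in WT anagen and 104 and 146 CPM in the KO. Jup was not particular to perineurial cells. Its mean there was 136 ± 20.4 CPM against 139 ± 11.2 CPM in lymphatic endothelial cells, and the libraries of both overlapped. Dsp, the desmoplakin that ties keratin to the desmosome, had 0 UMIs in all 6 perineurial sums. Pkp4 was the remaining gene of the 16 in the desmosome list with enough UMIs to be tested, at 34.6 ± 10.6 CPM.

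Cdh1, the epithelial cadherin, had 9, 5, 4 and 5 UMIs in the perineurial cells of WT telogen S1 and S2 and WT anagen S1 and S2 and 0 in both KO libraries, at most 2.44 CPM. Other cadherins took its place in level. Cdh11 was at 327 ± 25.6 CPM and Cdh5 at 232 ± 45.1 CPM (SD, n = 6), the latter at 181 to 231 CPM in WT and 297 and 274 CPM in KO libraries, below the 704 to 1047 CPM of blood endothelial cells. The catenins Ctnna1 and Ctnnb1 were at 389 ± 91.2 and 306 ± 43.7 CPM. From the mesenchymal list, Vim, the filament protein of connective tissue, was at 3172 ± 662 CPM and Lmna at 688 ± 156 CPM. Twist1 and Zeb1, factors of mesenchymal cells, were at 201 ± 38.6 and 133 ± 33.7 CPM. These were the 4 highest of the 11 genes of that list. The others were lower, with Zeb2 at 39.3, Twist2 at 9.97, Snai2 at 6.75, Snai1 at 2.50, Nes at 0.891, Gfap at 0.036 and Des at 0 CPM. A UMI at the 3′ end does not scale with transcript length, and capture differences between genes were not corrected.

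As a reference, 74 cells in all libraries had UMIs of 3 or more of the 12 keratinocyte markers and were kept out of the named types. In the 2 libraries with at least 10 such cells, Dsp was at 174 and 234 CPM, Cdh1 at 31.9 and 99.5 CPM and Perp at 436 and 858 CPM, so Dsp and Cdh1 were detectable in these libraries where present. Krt8 was at 2.66 and 0 CPM and Krt18 at 0 CPM there too. Krt18 was highest in artery-like cells, at 11.6 ± 8.36 CPM (SD, n = 6), with 7.73 and 25.5 CPM in WT telogen, 15.9 and 12.6 CPM in WT anagen and 1.75 and 6.43 CPM in the KO. In the artery-like cells of WT anagen S1, 28 of the 79 Krt18 UMIs came from a single cell.

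**Figure D2:**
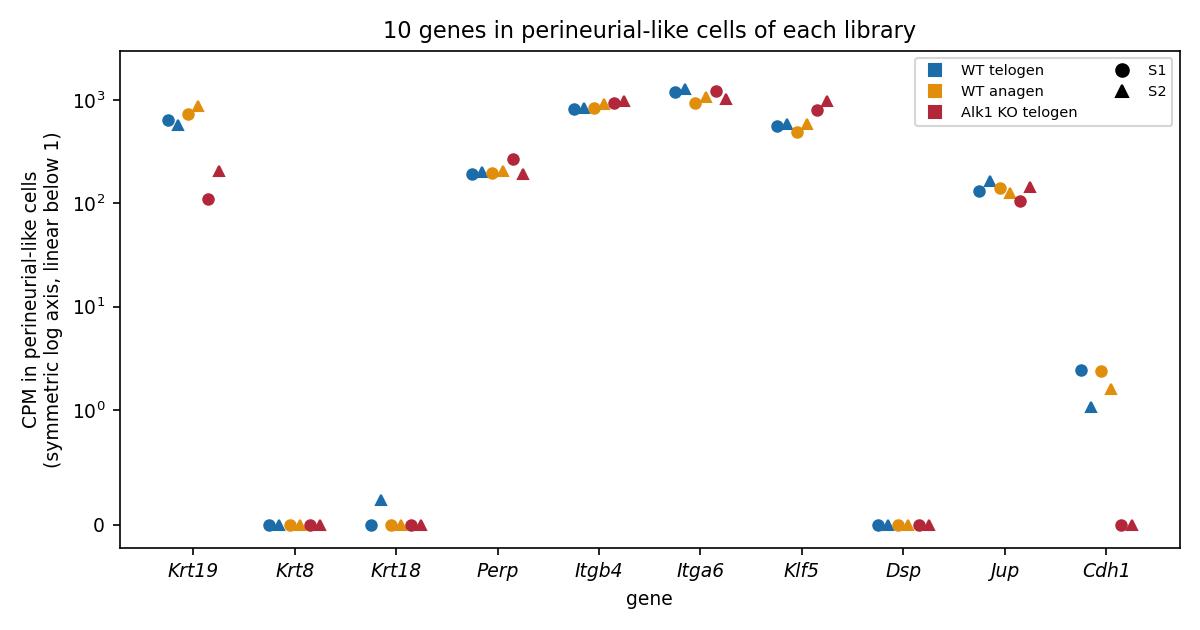
CPM of each of the 10 genes (x axis) in the perineurial-like cells of the 6 libraries (symmetric log y axis, linear below 1), coloured by group, with circles for S1 and triangles for S2. The 2 KO libraries lie below the WT libraries for Krt19, at 111 and 204 CPM, and above them for Klf5, at 796 and 983 CPM.

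To compare cells of unequal depth, each cell was thinned to 1500 UMIs, which left out 24 perineurial cells. Krt19 then had a UMI in 53.2% of 2364 perineurial cells (exact 95% binomial interval 51.1 to 55.2%), Itga6 in 75.6%, Itgb4 in 66.8%, Klf5 in 54.2%, Perp in 23.1% and Jup in 18.3%. Without thinning the shares were 80.5%, 96.0%, 92.7%, 85.8%, 50.7% and 49.2%. Blood endothelial cells served as the background, with a median of 5397 UMIs before thinning against 5290 in perineurial cells. Krt19 had a UMI in 0.229% of 6555 of them, Perp in 0.351% and Klf5 in 0.58%, whereas Itgb4 had one in 8.33%. Krt8, Krt18 and Dsp were each found in 0 of 2364 thinned perineurial cells, which allows a share of up to 0.127% of cells with a UMI at that depth (3 counts of the total), and Cdh1 in 7. Intervals and limits cover counting error only.

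The other genes were compared between cells with and without Krt19. Klf5 had a UMI in 54.3% of thinned perineurial cells with Krt19 and in 54.1% of those without it, although the share was higher with Krt19 within 5 of the 6 libraries. Itgb4 was found in 70.3% and 62.9%, and Perp in 25.1% and 20.8%, respectively, and the share was higher in cells with Krt19 in 4 and 5 of the 6 libraries. Of the 10 genes, 3 were seen together in 34.2% of the cells, the most frequent number, and no cell had more than 6.

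Perineurial-like cells formed 4 subclusters of over 100 cells. Subcluster 0 (653 cells) was led by Gpx3 and included Hcn4 among its leading genes, subcluster 1 (607) had Rspo1 and Sdc1, subcluster 2 (501) had the inflammatory genes Ccl2, Il6 and Cxcl1, and subcluster 3 (452) was led by Lgals7 and Lum. Krt19 was at 756 and 604 CPM in subcluster 0 of WT telogen S1 and S2, at 851 and 750 CPM in subcluster 1, at 435 and 380 CPM in subcluster 2 and at 615 and 418 CPM in subcluster 3. Subcluster 2 was thus lowest in both WT telogen libraries, and also in WT anagen S1 (408 CPM). In WT anagen S2 subcluster 3 was lowest (651 against 714 CPM in subcluster 2), and in KO S1 subcluster 2 was highest (137 CPM). Itga6 ran the other way, with 1549 ± 366 CPM in subcluster 2 and 871 ± 141 CPM in subcluster 1. Perp was lowest in subcluster 3, at 118 ± 8.53 CPM (SD, n = 4) against 268 ± 50.01 CPM in subcluster 0 (n = 5), with no overlap between libraries. The members took no part in the clustering, but the subclusters were made from the same cells, so these differences have no test.

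**Figure D3:**
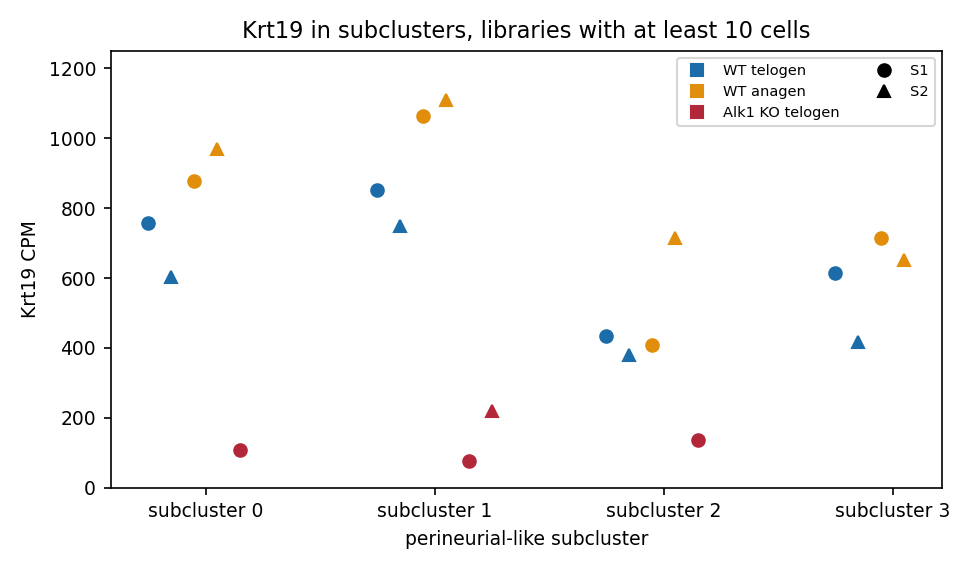
Krt19 CPM (linear y axis) in 4 perineurial-like subclusters (x axis) of each library with at least 10 cells in the subcluster, coloured by group, with circles for S1 and triangles for S2. In subcluster 1, where both KO libraries have enough cells, they lie at 78.0 and 220 CPM and the WT libraries at 750 to 1108 CPM.

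The levels of some genes ran closely with Krt19 across cell types. Over 66 sums of a library and a cell type with at least 20 cells, and among 8844 genes with a mean of at least 10 CPM, the 5 genes closest to Krt19 by Pearson r of log2(CPM + 1) were Paqr6 (r = 0.939), Tenm2 (0.938), Hcn4 (0.929), Slc6a13 (0.906) and Sfrp5 (0.906). Hcn4, Slc6a13 and Sfrp5 are among the markers by which the cells were named. For Krt18 they were Gkn3 (0.757), Aggf1 (0.727), the arterial connexin Gja5 (0.722), Azin1 (0.672) and Tox2 (0.666). Sums of one library share its depth and free RNA, so these values are descriptive.

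Schwann-like cells were the nearest type for Krt19, with 198 and 241 CPM in WT telogen and 172 CPM in WT anagen S1, the libraries with at least 10 cells, and a mean of 204 ± 34.5 CPM (SD, n = 3). These values lay below all WT perineurial libraries and overlapped the KO perineurial libraries. The perineurial markers moved with this. They summed to 1515 to 1552 CPM in the same 3 Schwann-like sums, with 10 of 10 detected, and the part of perineurial RNA in the Krt19 level was not tested. In the other libraries, Krt19 had 0 UMIs in 7 to 9 Schwann-like cells each.

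The stage comparison asked whether these genes change in perineurial cells as hair follicles pass from telogen to anagen. None of the 6 genes with enough UMIs passed the test (edgeR's quasi-likelihood test, Benjamini-Hochberg adjusted p under 0.05 and fold over 1.3), and 0.522% of 10918 genes did (0.412% higher and 0.11% lower). Krt19 had the smallest p. Both anagen libraries (735 and 881 CPM) were above both telogen libraries (643 and 572 CPM), a log2 difference of 0.49 (SE 0.129) that did not pass after adjustment (edgeR adjusted p = 0.131). Krt19 passed with WT anagen S1 left out (edgeR adjusted p = 0.0112). The p-values rest on 2 mice per group, and edgeR draws the spread of each gene toward that of all genes. Itga6 had a log2 difference of -0.22 (edgeR adjusted p = 0.449), Perp 0.13 (0.715), Itgb4 0.16 (0.596), Klf5 0.01 (0.99) and Jup -0.09 (0.86), with 95% intervals of the fold between 0.718 and 1.33. Krt8, Krt18, Dsp and Cdh1 were too low to test. By edgeR 1 member, Krt19, had an unadjusted p under 0.05, and by DESeq2 0 members passed.

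In the same comparison, none of the hemidesmosome, desmosome, adherens junction, epithelial, mesenchymal or integrin lists had a called gene in perineurial cells. The list medians lay between -0.12 (integrin partners) and 0.57 (epithelial list, 5 genes tested) against -0.003 over all genes.

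The KO comparison asked how Alk1 KO telogen cells differ from WT telogen cells. In perineurial cells Krt19 fell 4.35-fold and no other member passed. The 2 KO libraries (111 and 204 CPM) did not overlap the 2 WT telogen libraries (643 and 572 CPM), and the log2 difference was -2.12 (SE 0.26, 95% interval -2.67 to -1.57, edgeR adjusted p = 4.02e-05). Of 10160 genes tested, 21.9% were called (10.4% higher and 11.5% lower), and 567 had a log2 difference as low as that of Krt19 or lower, so 1 called gene among 6 is near the background share. Krt19 stayed called in 20 of 20 alternatives, with log2 differences from -2.96 to -1.83 and adjusted p from 1.17e-15 to 0.00355. Within subcluster 1, Krt19 was at 78.0 and 220 CPM in the KO and 851 and 750 CPM in WT telogen.

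The lower Krt19 level went with fewer cells that had it. A Krt19 UMI was found in 12 of 75 and 9 of 47 KO perineurial cells, 16.0% (exact 95% binomial interval 8.55 to 26.3%) and 19.1% (9.15 to 33.3%), against 86.9% and 81.0% in WT telogen. After thinning to 1500 UMIs the shares were 11.1% and 14.0% in the KO, 52.6% and 49.0% in WT telogen and 61.4% and 62.1% in WT anagen. The unthinned KO cells with Krt19 held a mean of 2.83 and 3.89 UMIs each, against 5.33 and 4.15 in WT telogen. In KO S2 a single cell held 16 of the 35 Krt19 UMIs, and the median was 2. After thinning the means were 1.125 and 1.667 in the KO and 1.833 and 1.742 in WT telogen. KO cells were shallower, with medians of 4030 and 3265 UMIs against 6521 and 5609. The 12 cells of KO S1 with Krt19 lay in subclusters 0 to 3, with 3 in each, and of the 9 in KO S2, 4 lay in subcluster 1, 2 in subcluster 2 and 1 each in subclusters 3, 8 and 11. KO cells were spread otherwise over the subclusters, with 29 of 75 and 26 of 47 in subcluster 1 against 122 of 511 and 219 of 794 in WT telogen.

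The other 5 tested genes did not pass in KO perineurial cells. Klf5 was 1.44-fold higher (796 and 983 against 560 and 581 CPM, log2 0.53, SE 0.205, edgeR adjusted p = 0.0786) and passed when either KO library was left out (adjusted p = 0.0171 and 0.0473). Jup had a fold of 0.756 (adjusted p = 0.25), Itga6 of 0.856 (0.507), Perp of 1.13 (0.611) and Itgb4 of 1.07 (0.782, 95% interval 0.791 to 1.45), although its 2 KO libraries were above the 2 WT telogen libraries. Itga6 passed with KO S1 left out (adjusted p = 0.0146).

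Around the members, 4 further genes of the lists were called in KO perineurial cells. Cd151 fell 2.38-fold (302 to 134 CPM, edgeR adjusted p = 0.000908), Dst, a plakin of hemidesmosomes, rose 2.32-fold (0.00051), Afdn, the afadin of adherens junctions, rose 2.01-fold (0.00325), and Vim fell 1.59-fold (0.0489). These were 1 higher and 1 lower of 6 tested hemidesmosome genes, 1 of 11 adherens junction genes and 1 of 7 mesenchymal genes, in a comparison where 21.9% of all genes were called (10.4% higher and 11.5% lower). The list medians were 0.07, -0.11 and -0.42 on the log2 scale, against -0.05 over all genes. Other markers also moved: the fibroblast markers summed to 7530 and 7578 CPM in KO and 10440 and 11110 CPM in WT telogen perineurial cells, the pericyte markers to 279 and 310 against 154 and 178 CPM, and the 7 endothelial markers to 32.6 and 64.0 against 80.4 and 84.7 CPM. The pericyte sums were mostly Pdgfrb (mean 123 CPM, 62.9 to 279 CPM over libraries) and Tagln (mean 68.2 CPM, 0 to 137 CPM). Rgs5, Acta2 and Notch3 had means of 0.814, 0.724 and 1.86 CPM, so these sums do not stand for the pericyte markers as a set. The part of all these markers in the Krt19 result was not tested.

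**Figure D4:**
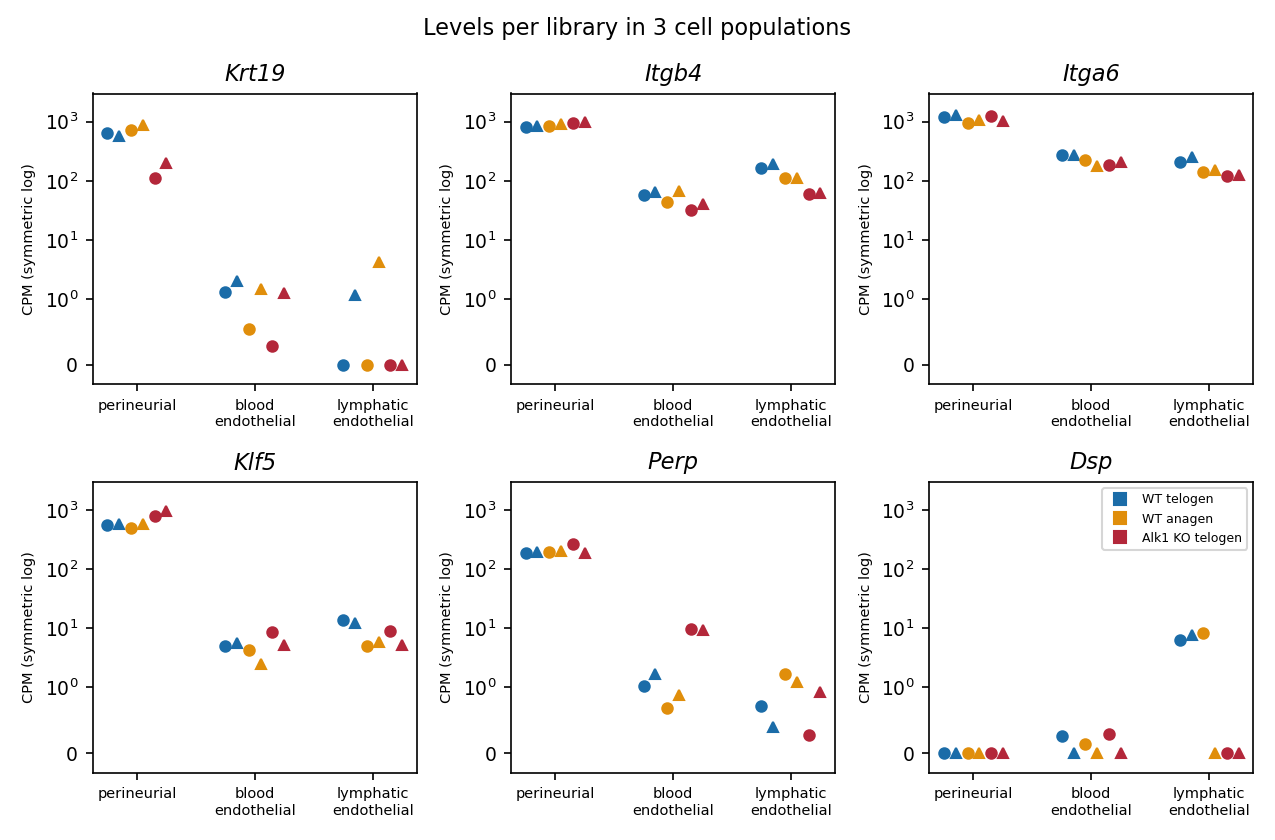
CPM per library (symmetric log y axis, linear below 1) of 6 genes in perineurial, blood endothelial and lymphatic endothelial cells, coloured by group, with circles for S1 and triangles for S2. Itgb4 of KO lymphatic endothelial cells lies at 60.05 and 62.7 CPM, below WT telogen at 164 and 195 CPM, while the perineurial libraries lie at 823 to 983 CPM in all groups.

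In lymphatic endothelial cells the integrin pair fell with the KO. Itgb4 went from 164 and 195 CPM in WT telogen to 60.05 and 62.7 CPM, a 3.04-fold fall (log2 -1.61, SE 0.133, edgeR adjusted p = 6.04e-05). Itga6 went from 211 and 255 CPM to 121 and 125 CPM, a 1.97-fold fall (log2 -0.98, adjusted p = 0.000657). Groups did not overlap for either gene. Besides Dsp, 4 members were tested there and 2 were called lower, where 24.9% of 10977 genes were called (11.8% higher and 13.1% lower).

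The hemidesmosome list as a whole had 6 of 7 tested genes called lower in KO lymphatic endothelial cells, where 13.1% of all genes were called lower. Itgb4 and Itga6 are 2 of the 6, and the list's median log2 difference of -0.98 is that of Itga6, against 0.03 over all genes. Named after their values were seen, these included Dst (1.86-fold lower, edgeR adjusted p = 0.00271) and Plec (1.54-fold lower, 0.00806), and Cd151 did not pass (adjusted p = 0.927). Dsp passed the low-count filter only through the WT libraries, where it was higher, so its difference is given without a test. It had 18 and 20 UMIs in WT telogen S1 and S2, in 17 cells each, and 0 UMIs in both KO libraries, at least 18.9-fold lower when the 3 UMIs that a count of 0 allows over the group are set against the WT mean of 7.13 CPM. The WT anagen libraries were split, with 34 UMIs in 31 cells of S1 and 0 in the 588 cells of S2, so 3 of the 6 libraries had Dsp in these cells. Krt8 had 13 UMIs in lymphatic cells of WT telogen S1, all from 1 cell.

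The difference between perineurial and lymphatic cells was tested as an interaction with the library as a block. The KO log2 difference was higher in perineurial than in lymphatic cells by 1.56 for Itgb4 (SE 0.239, edgeR adjusted p = 2.69e-06) and by 1.35 for Klf5 (SE 0.348, adjusted p = 0.00474), while 12.7% of 12416 genes passed this test (4.49% more positive and 8.23% more negative in perineurial cells). For Itga6 it was 0.61 (adjusted p = 0.0888). Klf5 in lymphatic cells was at 13.6 and 12.5 CPM in WT telogen and 8.97 and 5.13 CPM in the KO.

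Stage had no called member in lymphatic cells by edgeR, of 5 tested, with 1.39% of 10383 genes called (1.07% higher and 0.318% lower). Itgb4 and Itga6 were each 1.48-fold lower in anagen, at 112 and 111 CPM and at 141 and 150 CPM, and neither overlapped telogen (edgeR adjusted p = 0.0938 and 0.0892). Klf5 was 2.22-fold lower (0.0892). These 3 had an unadjusted p under 0.05, and DESeq2 called 1 of them, Itga6 (adjusted p = 0.0458). The same telogen libraries serve both comparisons.

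In blood endothelial cells, Perp was low in all groups and highest in the KO libraries. It was at 1.05 and 1.69 CPM in WT telogen, 0.68 and 0.89 CPM in WT anagen and 9.66 and 9.33 CPM in the KO, with no overlap. Perp passed the low-count filter in these cells only through the KO libraries, so the difference is given without a test. Among blood vessel types, Perp was at 28.0 and 22.5 CPM in KO artery-like cells, in 14 of 175 and 13 of 225 cells, and at 2.81 and 2.39 CPM in those of WT telogen. It was at 0 CPM in KO capillary-like cells. Itgb4 fell 1.71-fold, from 56.5 and 63.4 to 32.4 and 39.8 CPM (adjusted p = 0.00428), and Itga6 1.43-fold, from 274 and 276 to 187 and 207 CPM (adjusted p = 0.0121). The Itga6 call was lost with WT telogen S1 or S2 left out (adjusted p = 0.0871 and 0.0739).

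Besides Perp and Krt18, the members tested in the KO comparison of blood endothelial cells were Itgb4, Itga6, Klf5 and Jup. Of these 2 were called lower, where 31% of 11045 genes were called (14% higher and 17% lower). Krt18 was at 2.88 and 9.02 CPM in WT telogen and 0.568 and 2.80 CPM in the KO. It passed the low-count filter only through WT telogen, so its difference is given without a test. The KO difference of Itgb4 was more positive in perineurial than in blood endothelial cells by 0.86 on the log2 scale (interaction, SE 0.216, edgeR adjusted p = 0.0184), with 5.29% of 12522 genes called (2.88% more positive and 2.4% more negative in perineurial cells). Krt19, at 2 CPM or less in blood endothelial cells, gave no called difference (adjusted p = 0.639). For the stage comparison, edgeR called 0 of 6 members and 0% of 12322 genes in blood endothelial cells, 1699 genes had an unadjusted p under 0.05 and DESeq2 called 135. The stage interactions called no member against blood or lymphatic cells, where 0.0898% of 12253 genes (0.0816% more positive and 0.00816% more negative) and 0.37% of 11892 genes (0.185% each way) passed. The nearest was Itgb4 against lymphatic cells (log2 0.74, SE 0.159, edgeR adjusted p = 0.0502).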

How the data were processed

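The deposited matrices hold raw UMI counts for each gene and cell barcode. Cell Ranger 6.0.1, Seurat 4.0 and the build mm10 are named in the submitters' processing notes. Cells with 200 to 5000 genes and under 10% mitochondrial UMIs were kept. Principal components (30) of 3000 variable genes, without the 10 members, the other genes of the lists (102 genes with the members) and mitochondrial genes, were corrected between libraries with Harmony (own implementation), and cells were clustered by Leiden (leidenalg 0.10.2) at resolution 0.6 (0.3 within perineurial cells). A cluster was named from at least 3 markers that were 2-fold over the median of the other clusters and in 25% of its cells. The authors' cell annotation was not used here, so names are rebuilt. Left out of the named types were 74 cells with 3 or more keratinocyte markers and 82 cells of perineurial subclusters with endothelial markers, both chosen after seeing the data, and 633 cells stayed unnamed. Likely doublets were kept, since the Scrublet-type caller marked under 0.5% of cells in 4 libraries.

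UMIs were summed per library and type and given as CPM. Blood endothelial cells are artery-, vein- and capillary-like cells. Groups were compared 2 against 2 with edgeR 4.0.16 (filterByExpr, TMM, glmQLFTest), with DESeq2 1.42.0 as an alternative. An exact permutation test of 2 against 2 cannot go below p = 0.333. The tests were checked on counts simulated from the perineurial sums at 1 assumed spread between libraries. Of 100 genes with a log2 change of 1, edgeR called 22% in the stage and 13% in the KO design. With a log2 change of 2 it called 87% and 80%, and false calls were 4 and 2. How often a change in the members themselves would be called was not tested. A gene that did not pass can still differ within its interval. In perineurial cells the 95% intervals of the fold of Perp, Itgb4, Itga6, Klf5 and Jup lay between 0.718 and 1.33 for stage. For the KO they lay between 0.532 and 1.95. Named genes were all members, up to 4 called genes and up to 4 of the highest level per list, the 5 genes most like Krt19 and Krt18, Acvrl1, and keratinocyte markers above 10 CPM. The members and lists were chosen with earlier results of these data known. Alternatives covered cell filters, clustering, thinning, normalisation, the low-count filter, the fit and each library left out. One result is not reported here.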

Additional observations from a re-analysis of the deposited data

Results flagged for a closer look

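Members are listed here where the KO difference differed between cell populations by an interaction test. It had the library as a block (edgeR's quasi-likelihood test, adjusted over all genes). Of all genes, 5.29% of 12522 passed against blood endothelial cells (2.88% more positive and 2.4% more negative in perineurial cells). Against lymphatic endothelial cells 12.7% of 12416 passed (4.49% more positive and 8.23% more negative). Perp had a difference of -2.59 on the log2 scale between perineurial and blood endothelial cells, which is given without a test. It rests on 4 and 6 Perp UMIs in WT telogen and 34 and 30 in KO blood endothelial cells. In those cells the gene passed the low-count filter only through the KO libraries. Itgb4 differed by 0.855 against blood and by 1.56 against lymphatic endothelial cells, with the falls in endothelial cells. Klf5 differed by 1.35 against lymphatic endothelial cells. Genotype cannot be told apart from day, strain, the Krt14-H2BGFP allele and the dataset of origin in any of these.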

How the results depend on the processing

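The fall of Krt19 in KO perineurial cells passed under 20 of 20 alternatives, and of the fold changes of members under the alternatives, 619 kept their direction and call, 28 passed where they had not, 2 no longer passed and 44 changed sign. These numbers include the KO differences of Perp and Krt18 in blood and of Dsp in lymphatic cells, which are given without a test. The cause was not tested for any change below. Genes called in the perineurial stage comparison (57) numbered 0 with a limit of 5% mitochondrial UMIs, 94 without correction between libraries, 111 at Leiden resolution 1.2, 114 with per-cell marker scores, 124 with perineurial cells with endothelial markers kept (added after seeing the data), 561 without the low-count filter, 96 by DESeq2, 8 without TMM and 3 with all 6 libraries in one fit. In the perineurial KO comparison (2223) there were 1193 in thinned cells and 1409 by DESeq2. In blood, stage calls (0) were 1 without correction between libraries, 8 in thinned cells, 226 without the low-count filter and 135 by DESeq2, and KO calls (3429) were 2110 in thinned cells and 1853 by DESeq2. In lymphatic cells, stage calls (144) were 80 with 5% mitochondrial UMIs, 56 with marker scores, 905 without the filter, 265 by DESeq2 and 274 without TMM, and KO calls (2730) were 1446 in thinned cells and 1443 by DESeq2. The stage interactions gave 158 (11, blood) and 313 (44, lymphatic) genes without the filter.

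Without the low-count filter, members called changed to 1 (perineurial stage, Krt19, edgeR adjusted p = 0.00995) and 3 (lymphatic stage). In the lymphatic KO they changed from 3 to 5, and both counts include Dsp, whose difference is given without a test. Without TMM they changed to 2 in the perineurial KO (Klf5, edgeR adjusted p = 0.0219) and lymphatic stage comparisons. By DESeq2 they changed to 1 in the lymphatic stage comparison. The KO counts of members called in blood and lymphatic cells, also with single libraries left out, include genes given without a test. These are Perp in blood and Dsp in lymphatic cells, and in some settings Krt18 in blood. With single libraries left out, where the lone sample is assumed to vary like the other group, members called ranged from 0 to 1 (perineurial stage), 1 to 3 (perineurial KO), 0 to 2 (blood stage), 2 to 4 (blood KO), 0 to 3 (lymphatic stage) and 3 to 4 (lymphatic KO). All genes called ranged from 200 to 416, 901 to 2522, 0 to 865, 1913 to 3742, 56 to 1246 and 1923 to 2896 in the same order.

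Replicate numbers did not pair the samples (correlations of deviations from -0.0441 to 0.026, 2 pairs each). With the replicate number as a block, 418 genes and 1 member (Krt19, edgeR adjusted p = 0.0324) were called in the perineurial stage comparison. Klf5 (edgeR adjusted p = 0.0474) joined in the lymphatic KO comparison. In blood, Krt18 had a log2 difference of -1.881 for the KO, given without a test, and of 0.04741 for stage.

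Signs changed only for differences that were not called. Perineurial stage Jup was 0.09558 with 5% mitochondrial UMIs and ranged from -0.2362 to 0.08877 with a library left out (0.008249 without WT anagen S2). Perineurial stage Klf5 was -0.07323 without correction between libraries, -0.04302 at resolution 1.2, -0.09463 with marker scores, -0.03706 with mixed cells kept, -0.01441 without the filter, -0.002098 by DESeq2, -0.07408 without TMM, and ranged from -0.1252 to 0.1222 with a library left out (-0.02136 without WT telogen S1). Perineurial KO Itgb4 was -0.1292 with 5% mitochondrial UMIs, -0.0651 with marker scores, -0.02127 without cells with a keratinocyte-marker UMI, -0.04125 without the filter, and ranged from -0.0145 to 0.09998 with a library left out, where Perp ranged from -0.2778 to 0.3857. Blood stage Itgb4 was 0.02591 without likely doublets, 0.008494 without correction between libraries, 0.005795 at resolution 1.2, 0.04012 in thinned cells, 0.0402 without the filter, 0.0158 by DESeq2, 0.004329 in one fit, and ranged from -0.3607 to 0.2749 with a library left out (0.07037 without WT telogen S2). Blood stage Jup was 0.0225 without correction between libraries, 0.01106 without cells with a keratinocyte-marker UMI, 0.01957 without the filter, and ranged from -0.6532 to 0.4032 with a library left out (0.007937 without WT telogen S2). Blood stage Krt18 was 0.04964 without correction between libraries, 3.178e-05 at resolution 1.2, 0.02194 without the filter, and ranged from -0.6234 to 0.9934 with a library left out (0.05799 without WT anagen S2). With a library left out, blood KO Klf5 ranged from -0.06716 to 0.7221, lymphatic stage Dsp from -7.187 to 0.3822 and Jup from -0.1879 to 0.05712. Lymphatic KO Jup was 0.02498 with marker scores. The stage interactions of Jup were -0.004308 (blood) and -0.1279 (lymphatic) without the filter.

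The 75 and 47 KO perineurial cells limit the precision of the KO comparison.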

Other observations

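Krt19 was also measured in cells outside the named types. In the 82 cells of perineurial subclusters with endothelial markers, which were left out of all comparisons, Krt19 was at 204 to 492 CPM in the 4 libraries with at least 10 such cells, with Itgb4 at 480 to 664 CPM and Klf5 at 288 to 362 CPM. Krt8, Krt18, Dsp and Cdh1 had 0 UMIs in them.

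Cells that stayed unnamed had Krt19 at 110 and 175 CPM in WT telogen, 108 and 269 CPM in WT anagen and 7.61 and 0 CPM in the KO, with no test. The KO sums held 131468 and 116065 UMIs in all. Perineurial-like cells made up 4.38% and 2.4% of the KO libraries and 6.14 to 16.9% of the WT libraries. The part of perineurial RNA in these levels was not tested. Lymphocyte-like cells had Dsp at 0 to 29.5 CPM and Cdh1 at 0 to 21.9 CPM in the 5 libraries with at least 10 cells, both above the perineurial level in the highest library.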
